A study of Mus musculus with 14 samples.

Results

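The phase II transferases of the liver are described here as 64 protein-coding genes among the 51912 gene rows of the count files. They were taken by symbol, and these classes were chosen with earlier results of these data known. There were 21 Ugt genes (the UDP-glucuronosyltransferase families Ugt1 and Ugt2, and the related Ugt3). The others were 22 cytosolic and related glutathione S-transferase genes (Gst) and 21 sulfotransferase genes (Sult). The 52 members with enough counts to be tested comprised 18 Ugt, 19 Gst and 15 Sult genes. Of the 12 others, Sult1c1, Sult6b1, Ugt2a1 and Ugt2a2 had no count in any library. The other 8 (Gsta1, Gstt4, Gsto2, Sult2a6, Sult2b1, Sult4a1, Sult6b2 and Ugt1a2) had too few counts.

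Glucuronosyltransferases sit in the endoplasmic reticulum and join glucuronic acid to bilirubin, bile acids, steroids and drugs. Glutathione S-transferases join glutathione to electrophiles, and sulfotransferases move a sulfo group from the donor PAPS to phenols, steroids and bile acids. In the liver, where hepatocytes make most of these enzymes, the conjugates are more water soluble than their parent molecules and leave through transporters into bile or blood.

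The livers came from mice with floxed Tet2, a gene for an enzyme that oxidizes methylated cytosine. Vav-cre, which acts in blood cells, was present in the 5 AIH mice, which had autoimmune hepatitis that arose without treatment, and in 5 asymptomatic mice, whereas the 4 healthy control littermates (Tet2fl/fl) carried no cre. All animals were 20 weeks old and untreated, and RNA from the left liver lobe gave 1 library per animal. The floxed allele was thus shared by the 3 groups, and hepatocytes are not blood cells.

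Libraries held 15.97 to 18.92 M counts (M, mega) on genes, of which the members held 0.530% to 1.24%. Sex was absent from the labels. Xist and the Y-linked genes Ddx3y, Kdm5d, Eif2s3y and Uty showed that 4 AIH mice were female and AIH 4 was male, that all 5 asymptomatic mice were male, and that controls 2 and 3 were female and controls 1 and 4 male. Xist was at 142 to 526 CPM (counts per M, scaled by TMM) in the female libraries and at 0.0585 to 0.529 CPM in the male ones. Sex and group were therefore partly the same split. Tet2 averaged 10.5 ± 3.98 CPM in AIH livers, 6.82 ± 1.83 CPM in asymptomatic livers (SD, n = 5 each) and 10.7 ± 1.54 CPM in control livers (SD, n = 4), and no difference was called (adjusted p of edgeR 0.0794 to 0.945). Reads that did not align were 3.23% to 6.54% of an AIH library, 4.93% to 9.27% of an asymptomatic library and 4.17% to 4.89% of a control library.

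Whole liver was sequenced, so fewer cells of a type and less RNA per cell cannot be told apart. Summed CPM of 15 hepatocyte markers ran from 112245 to 201028 in AIH livers, from 151902 to 175979 in asymptomatic livers and from 139634 to 187849 in control livers. The 8 monocyte and macrophage markers were all higher in AIH livers than in controls, with sums of 818 to 1747 CPM against 190.3 to 402 CPM, and so were 9 of 10 T and NK cell markers, with sums of 16.7 to 88.7 CPM against 2.63 to 8.39 CPM. Among the 15 hepatocyte markers, Trf (transferrin) was higher and Cyp2e1 lower than in controls, and the other 13 were not called. In AIH against control livers, 15.6% of all tested genes were called higher and 6.08% lower. Against asymptomatic livers, 1 of the 15 hepatocyte markers was higher and 5 were lower (median log2 fold change -0.34), where 19.1% of all tested genes were called higher and 10.7% lower. Serpina1c, Cyp2e1 and Hnf4a were among the 5. The part of this change in cell content in the results below was not tested.

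The 9 Ugt1a members lie in 1 cluster on chromosome 1, where each gene has its own first exon and shares later exons with the others. A read can be specific to a member only if it reaches the first exon or the junction after it. Some annotated models overlap further. Here and below, 50-base words were counted in the longest coding transcript of each member. In that transcript, 100% of the words of Ugt1a6a and 80.7% of those of Ugt1a6b also occur in Ugt1a7c. Of all annotated exon bases of Ugt1a6a, 50.3% overlap an exon of another member. To show how alike these ends are, the last 30 bases of 6 first exons (lower case) are joined here to the first 30 bases of the shared second exon at chr1:88215044-88215073 (capitals; GRCm38, plus strand, GENCODE transcripts). 
Ugt1a1: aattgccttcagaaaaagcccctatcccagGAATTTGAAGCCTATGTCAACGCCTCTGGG
Ugt1a5: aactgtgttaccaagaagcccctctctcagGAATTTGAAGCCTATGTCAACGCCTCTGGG
Ugt1a7c: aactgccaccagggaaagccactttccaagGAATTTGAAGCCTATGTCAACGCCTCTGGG
Ugt1a8: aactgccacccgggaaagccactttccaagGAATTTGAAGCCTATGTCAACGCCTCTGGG
Ugt1a9: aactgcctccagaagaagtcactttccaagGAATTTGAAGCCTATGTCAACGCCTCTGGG
Ugt1a10: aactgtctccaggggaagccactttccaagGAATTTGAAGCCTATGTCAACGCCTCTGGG
All 6 first-exon ends differed from each other, while the second-exon part was 1 sequence in all. Reads within the shared exons fit several members and can be dropped as ambiguous, so levels of Ugt1a genes are uncertain.

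Members of the Sult2a cluster on chromosome 7 are shown with promoter windows, since the 4 shown had no count in any asymptomatic library. Each window is 60 bases on the gene's strand (RefSeq, GRCm38.p6), with capitals for a match to GTTAATNAT, the first letters of a binding site of the liver factor HNF1. 
Sult2a3, chr7:14123065-14123124: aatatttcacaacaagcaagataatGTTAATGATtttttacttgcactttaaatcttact
Sult2a4, chr7:13989661-13989720: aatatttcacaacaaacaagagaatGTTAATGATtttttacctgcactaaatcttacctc
Sult2a5, chr7:13623907-13623966: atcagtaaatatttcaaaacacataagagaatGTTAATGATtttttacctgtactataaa
Sult2a6, chr7:14254907-14254966: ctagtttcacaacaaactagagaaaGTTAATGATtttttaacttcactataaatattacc
The match began 51, 107, 28 and 71 bases before the start in this order of genes. On either strand within 250 bases before the start, GTTAATNAT was found in 0.737% of 32851 promoters and in 8 of the 67 promoters of 56 matched members: these 4, Ugt1a1, Ugt1a9, Ugt1a10 and Sult1d1. In Ugt1a1, Ugt1a9 and Ugt1a10 the match was on the opposite strand, and the windows of Ugt1a1 and Ugt1a9 are shown. 
Ugt1a1, chr1:88211890-88211949: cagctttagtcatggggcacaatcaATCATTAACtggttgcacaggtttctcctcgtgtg
Ugt1a9, chr1:88070660-88070719: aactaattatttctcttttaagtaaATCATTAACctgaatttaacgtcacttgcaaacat
The shorter GTTAAT, which is contained in GTTAATNAT, was in 6.43% of all promoters and in 14 member promoters. TGACNNNGC, the core letters of the antioxidant response element bound by NRF2, was in 10.2% of all promoters and in the promoters of Gsta3, Gstm5 and Gstm7. TTCNNNGAA, the letters of a STAT site, was in 7.02% of all promoters and in those of Gsta1, Gstm6, Sult3a1 and Ugt1a6a. Letters of a window are a description and show no binding.

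Levels differed widely among members. Per kilobase of exon, Gstm1, a mu class enzyme, had the highest mean over all libraries at 527 CPM per kb. The next members were Ugt2b36 (334 CPM per kb), Ugt2b5 (315), Gsta3 (308), Sult1a1 (228) and Sult2a8 (205). Gstm1 was first in every group, but the order below it differed. Sult1a1 was next in AIH livers (275.5 CPM per kb), Ugt2b5 in asymptomatic livers (420.2) and Ugt2b36 in control livers (348), and in the 6 female libraries it was Sult2a1 (395). The summed level of the Ugt class averaged 2452 ± 815 CPM in AIH livers, 4725 ± 494 CPM in asymptomatic livers (SD, n = 5 each) and 4042 ± 588 CPM in control livers (SD, n = 4). Male AIH 4 had the highest Ugt sum of its group at 3757 CPM, above the lowest control at 3428 CPM, and all AIH sums were below all asymptomatic sums. Gst sums averaged 3132 ± 903 CPM in AIH livers, 4382 ± 1081 CPM in asymptomatic livers and 3877 ± 1301 CPM in control livers, and the 3 groups overlapped. Sult sums averaged 1367 ± 219 CPM in AIH livers, 1628 ± 261 CPM in asymptomatic livers and 1976 ± 857 CPM in control livers, and these overlapped too.

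**Figure D1:**
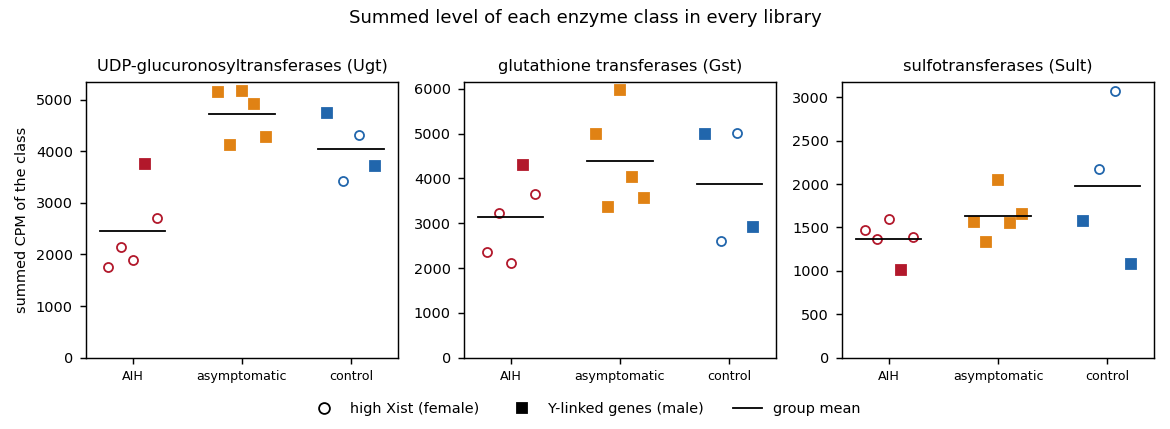
Summed CPM of the Ugt, Gst and Sult members in each library, by group (AIH, asymptomatic, control); open circles are female and filled squares male libraries, and the line is the group mean. The Ugt sums of the AIH livers end at 3757 CPM in the male library, below every asymptomatic sum.

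Compared with control livers, AIH livers had 2 members higher and 9 lower among 52 tested (edgeR quasi-likelihood test, adjusted p under 0.05). Of all 14638 genes tested, 15.6% were called higher and 6.08% lower, 21.7% in either direction, so the share of members called (21.2%) was close to the background and their split was not. The median log2 fold change was -0.56 over the tested members and -0.01 over all tested genes. An unadjusted p under 0.05 was reached by 25 of the 52 members and by 34% of all genes. Most calls were in the Ugt class, with 1 higher and 7 lower of 18 tested and a median of -0.72. The Gst class had 1 higher and 1 lower of 19 (median -0.42), and the Sult class 1 lower of 15 (median -0.58). The count of lower members changed when single libraries were left out. It was 3 without AIH 1, 4 without AIH 2, 5 without AIH 3 and 15 without AIH 4. It was 5 without control 2 and 3 without control 3. Shares of all tested genes called are not given for these fits. A change over all genes and one in the members can therefore not be told apart. Scaling by library totals alone moved the median of all genes to 0.14 and gave 3 members higher and 3 lower (20.4% of all genes called, 18.3% higher and 2.08% lower). DESeq2 called 3 members higher and 9 lower of the 55 members it tested (21.8% of all genes called, 14.9% higher and 6.97% lower). The limma-voom fit called 3 higher and 8 lower of 52 (25.1% of all genes called, 16.7% higher and 8.35% lower). Library totals kept 5 of the 11 calls, without Gsto1, Ugt1a1, Ugt1a8, Ugt1a9, Ugt1a10 and Ugt3a2. With only the 2 groups compared 6 were kept, Gstm2, Ugt1a9, Ugt1a10 and Ugt3a2 were not called, and Ugt1a8 was left out by the count filter.

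Compared with asymptomatic livers, AIH livers had 7 members higher and 14 lower of 52. Of all tested genes, 19.1% were called higher and 10.7% lower, 29.8% in either direction, against 40.4% of the members. The median log2 fold change was -0.34 over the tested members and -0.03 over all genes. The Ugt class had 1 higher and 12 lower of 18 (median -1.03), the Gst class 1 lower of 19 (median -0.26), and the Sult class 6 higher and 1 lower of 15 (median 0.66). All asymptomatic mice were male and 4 of 5 AIH mice female. Adding sex to the model gave 0 members higher and 4 lower (9.37% of all genes called, 8.35% higher and 1.02% lower). Within males, with AIH 4 alone on one side, 0 were called higher and 2 lower (5.55% of all genes called, 5.36% higher and 0.184% lower). Of the 4 lower members with sex as a term, Ugt1a8 and Ugt1a10 were among the 21 calls made without it, and Sult2a7 and Sult5a1 were not. The 2 within males, Sult1d1 and Ugt1a6a, were not among the 21 either. With a term for the share of reads not aligned, 0 of the 21 calls were kept. Without AIH 1 or without AIH 2 the count of lower members was 9. For these fits and the one with the share not aligned, no share of all genes called is given. Scaling by library totals alone gave 10 members higher and 9 lower (27.2% of all genes called, 24.1% higher and 3.02% lower). DESeq2 called 10 higher and 13 lower of 56 members (27.4% of all genes called, 16.9% higher and 10.5% lower), and limma-voom 1 higher and 15 lower of 52 (37.7%, 22.1% and 15.6%). Library totals kept 16 of the 21, without Gstp2, Ugt2a3, Ugt2b36, Ugt2b37 and Ugt2b38. With only the 2 groups compared 14 were kept, Ugt2b37 and Ugt2b38 were not called, and the count filter left out Sult2a2, Sult2a4, Sult2a5, Sult3a2 and Ugt1a8.

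Between asymptomatic and control livers, edgeR called 0 of the 52 members and 0% of all genes. An unadjusted p under 0.05 was reached by 16 members and by 10.5% of all genes. DESeq2 called 7 of 53 members lower, with 0.75% of all its tested genes called (0.329% higher and 0.421% lower). These were Sult2a1, Sult2a2, Sult2a3, Sult2a5, Sult2a6, Sult2a7 and Sult3a1. The limma-voom fit called Gstp1 and Ugt2b38 higher and Gsto1 and Ugt1a1 lower, with 8.87% of all genes called (4.17% higher and 4.71% lower). Neither of these 2 fits held sex, and all 5 asymptomatic mice were male while 2 of the 4 controls were female. With sex as a term and within males, edgeR again called 0 members and 0% of all genes. The AIH and asymptomatic groups were set against the same 4 controls, and the AIH livers served in both of their comparisons, so the comparisons are not independent.

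**Figure D2:**
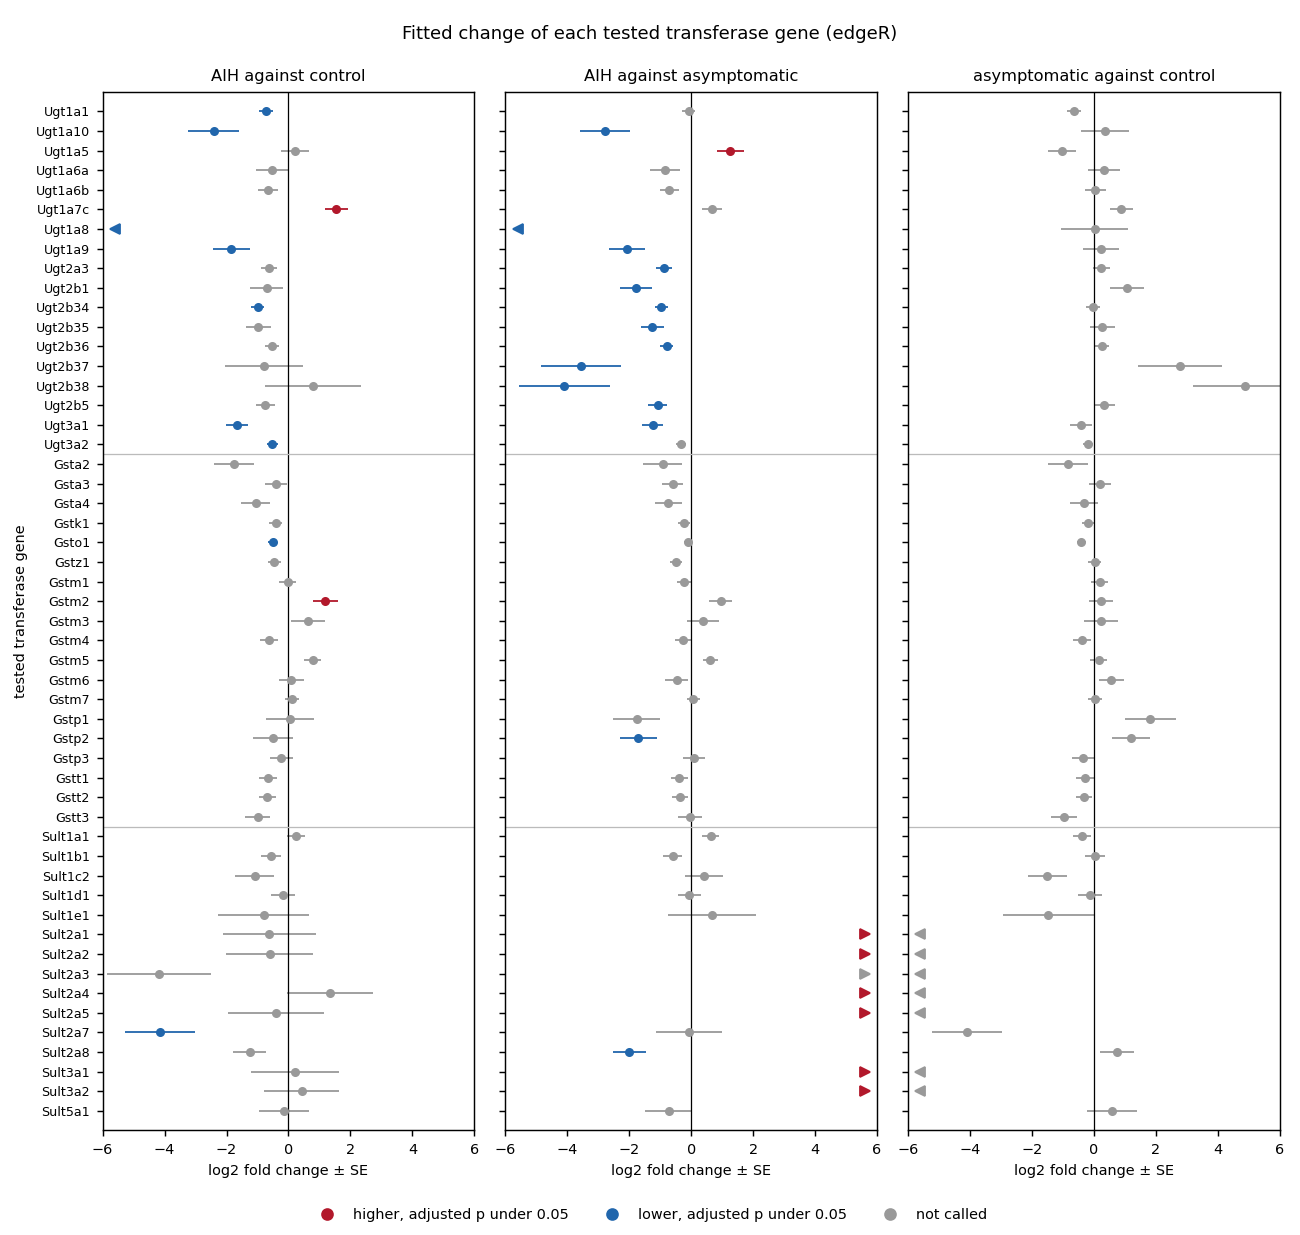
Log2 fold change with standard error of each tested member, by class, in the comparisons AIH against control, AIH against asymptomatic and asymptomatic against control. Red (higher) and blue (lower) marks had an adjusted p of edgeR under 0.05, and grey marks were not called. Triangles at the edge give only the direction of members with few counts or very large fitted values. The tested Ugt2 members lie left of 0 in AIH against asymptomatic livers.

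Ugt1a1, the enzyme that conjugates bilirubin (chr1:88211959-88218997), was at 154, 117, 169, 166 and 240.3 CPM in AIH livers, at 155, 251, 151, 205 and 132 CPM in asymptomatic livers and at 229, 322, 326 and 248 CPM in control livers. The AIH values lay below all controls except that AIH 5 exceeded control 1. Ugt1a1 was lower in AIH livers than in controls by edgeR (log2 fold change -0.73 ± 0.23 SE, adjusted p 0.0327). The call was lost without AIH 1, AIH 2, AIH 3, control 2 or control 3 (adjusted p up to 0.0823), with library totals as the only scaling (-0.58, adjusted p 0.0933) and within females (-0.93, adjusted p 0.0515). In asymptomatic livers against controls Ugt1a1 was not called (-0.65 ± 0.23, adjusted p of edgeR 0.420), and AIH and asymptomatic livers differed by -0.08 ± 0.22 (adjusted p of edgeR 0.811).

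Ugt1a9, an enzyme for bulky phenols in humans, was at 15.2, 21.4, 4.72, 33.1 and 26.7 CPM in AIH livers. It was at 118, 29.2, 121, 41.6 and 119 CPM in asymptomatic livers and at 37.4, 75.4, 153 and 24.9 CPM in control livers. All AIH values were low, but the ranges met those of asymptomatic 2 and control 4. Ugt1a9 was lower in AIH livers than in asymptomatic livers (-2.08 ± 0.58, adjusted p of edgeR 0.0146) and than in controls (-1.85 ± 0.60, adjusted p of edgeR 0.0385). The call against controls was lost without AIH 1, AIH 2, AIH 3, control 2 or control 3, where control 3 set the smallest value (-1.19, adjusted p 0.165). It was also lost with library totals as the only scaling (adjusted p of edgeR 0.0621) and with only the 2 groups compared (adjusted p of edgeR 0.0528). In the model with sex the values were -1.80 against controls (adjusted p 0.0549) and -2.35 against asymptomatic livers (adjusted p 0.0667).

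Ugt1a10 and Ugt1a8, neighbours of Ugt1a9, were low throughout and were named after their values were seen. Ugt1a10 was at 0.224 to 0.699 CPM in AIH livers, at 0.775 to 5.15 CPM in asymptomatic livers and at 0.279 to 6.54 CPM in control livers. AIH and asymptomatic values of Ugt1a10 did not overlap, and it was lower in AIH livers (-2.77 ± 0.81, adjusted p of edgeR 0.0183), also with sex as a term (-5.19, adjusted p 0.00285). Against controls the call for Ugt1a10 was marginal (-2.42 ± 0.83, adjusted p of edgeR 0.0498) and was lost in 10 of 14 fits without 1 library, with -1.08 without control 3. Ugt1a8 had 2 counts over the AIH livers, 55 over the asymptomatic livers and 50 over the controls. By library it had 22, 0, 20, 0 and 13 counts in asymptomatic livers and 0, 20, 30 and 0 in controls. The groups thus overlapped, and among controls only the females 2 and 3 held Ugt1a8 counts. Pooled over each group, Ugt1a8 was 33.6-fold higher in asymptomatic than in AIH livers (95% interval for counting error 8.86 to 284, and 25.03-fold without asymptomatic 1). It was 33.9-fold higher in control than in AIH livers (8.90 to 287, and 18.3-fold without control 3). The Ugt1a8 call was lost in 8 of 14 fits without 1 library against asymptomatic livers and in 10 of 14 against controls.

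Against the direction of these 4 genes, Ugt1a7c was higher in AIH livers than in controls. It stood at 1.54, 0.972, 2.21, 0.727 and 1.21 CPM in AIH livers, at 0.910, 1.118, 0.627, 0.582 and 0.931 CPM in asymptomatic livers and at 0.526, 0.452, 0.327 and 0.503 CPM in control livers. Every AIH and every asymptomatic value was above every control value. The difference between AIH and control livers was 1.54 ± 0.37 (adjusted p of edgeR 0.00767). This call was kept in all 14 fits without 1 library but lost in a fit of only the 6 female libraries. The low level of Ugt1a7c means few reads, and 69.3% of its 50-base words occur in another gene. The AIH against asymptomatic difference (0.67 ± 0.33, adjusted p of edgeR 0.135) was not called.

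Ugt1a5 was at 66.5, 25.5, 77.0, 36.5 and 91.1 CPM in AIH livers and at 17.6, 47.8, 26.5, 17.2 and 14.8 CPM in asymptomatic livers, against 92.9, 42.2, 47.8 and 21.3 CPM in controls. It was higher in AIH than in asymptomatic livers (1.26 ± 0.44, adjusted p of edgeR 0.0415), with overlap of the groups. That call was lost in 9 of 14 fits without 1 library (adjusted p up to 0.0969) and with sex as a term (1.14, adjusted p 0.300). Ugt1a6a and Ugt1a6b, which conjugate small phenols, were not called by edgeR over all libraries in any of the 3 comparisons. With AIH 4 alone against the asymptomatic males, Ugt1a6a was at -3.71 (adjusted p of edgeR 0.0189). Such a contrast compares 1 mouse with the others and takes its spread from the other groups.

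**Figure D3:**
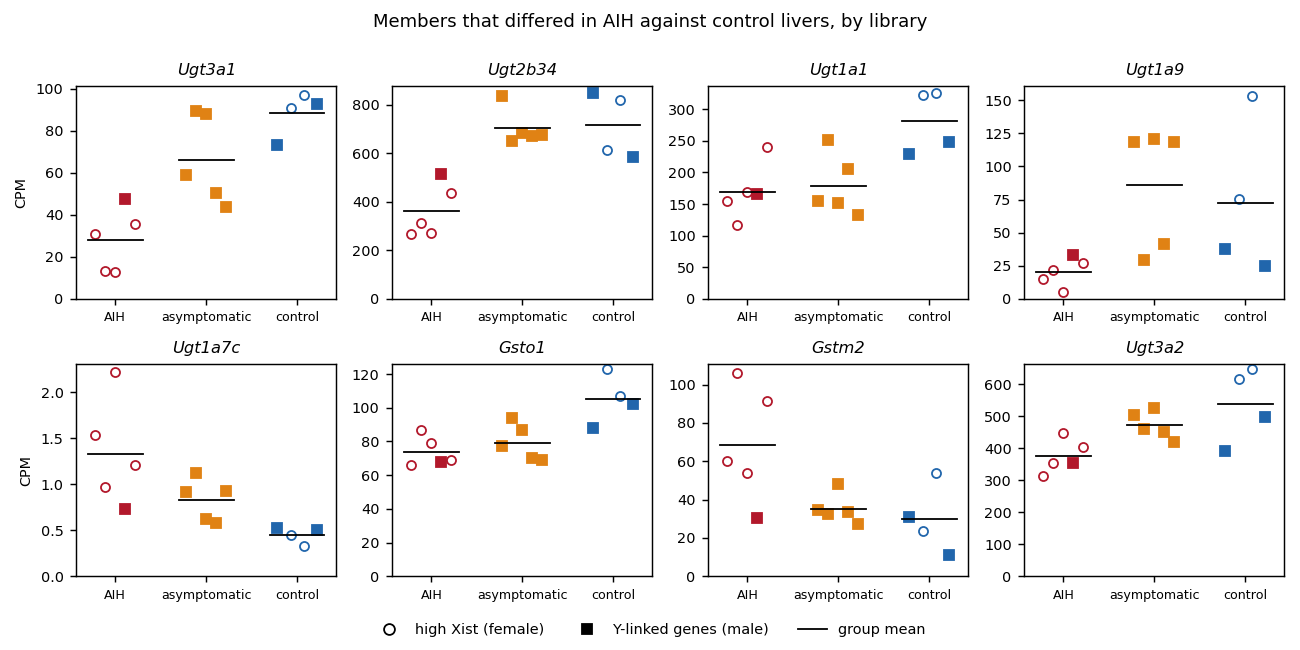
CPM of 8 members called between AIH and control livers in each library (AIH, asymptomatic, control); open circles are female and filled squares male libraries, and the line is the group mean. Ugt3a1, Ugt2b34, Ugt1a7c and Gsto1 separate the AIH from the control livers without overlap.

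The Ugt2 family, a cluster on chromosome 5 that conjugates steroids, bile acids and drugs, was lower in AIH than in asymptomatic livers in all 8 tested members (median -1.17), where 10.7% of all tested genes were called lower (median -0.03). Their summed level averaged 1773 ± 791 CPM in AIH livers, 3851 ± 475 CPM in asymptomatic livers and 2967 ± 669 CPM in control livers. None of the 8 was called with sex as a term, within males or with a term for the share of reads not aligned. Against controls, 1 of the 8 (Ugt2b34) was called lower, and the family median was -0.73.

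Ugt2b34 (chr5:86889767-86906937) was at 266, 313, 271, 516 and 438 CPM in AIH livers, at 838, 653, 682, 672 and 675 CPM in asymptomatic livers and at 848, 614, 819 and 586 CPM in control livers. All AIH values were below all others. It was lower than in controls by -0.99 ± 0.21 (adjusted p of edgeR 0.00429) and than in asymptomatic livers by -0.96 ± 0.20 (adjusted p of edgeR 0.00282). Both calls were kept in all 14 fits without 1 library. With sex as a term the difference from controls was -0.92 and still called, whereas that from asymptomatic livers was -0.73 (adjusted p of edgeR 0.1001). The call against controls was lost in a fit of only the 6 female libraries.

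The 2 most abundant members of the cluster per length, Ugt2b36 and Ugt2b5, were lower in AIH than in asymptomatic livers. Ugt2b36 was at 374, 499.6, 406, 619 and 574 CPM in AIH livers and at 930.2, 737, 1139.9, 825 and 655 CPM in asymptomatic livers, with no overlap, against 863, 509, 791 and 704 CPM in controls. Its difference from asymptomatic livers was -0.79 ± 0.20 (adjusted p of edgeR 0.00963). Ugt2b5 averaged 368 ± 200.04 CPM in AIH livers, 781 ± 161 CPM in asymptomatic livers (SD, n = 5 each) and 615 ± 157 CPM in control livers (SD, n = 4), and AIH 4 (698 CPM) lay within the asymptomatic range. Its difference from asymptomatic livers was -1.09 ± 0.31 (adjusted p of edgeR 0.0161). With library totals as the only scaling the Ugt2b36 call was lost (-0.59, adjusted p 0.0509), and 41.7% of the 50-base words of Ugt2b5 occur in another gene.

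Ugt2b1 is a male-biased member in mouse liver. It was at 87.7, 126, 79.7, 644 and 167 CPM in AIH livers, at 934, 448, 669, 900.0 and 816 CPM in asymptomatic livers and at 592, 229, 275 and 347 CPM in control livers. The AIH value of 644 CPM was that of male AIH 4, and the 4 female AIH livers were below both female controls. The difference between AIH and asymptomatic livers was -1.77 ± 0.52 (adjusted p of edgeR 0.0196) and was -2.71 without AIH 4. Against controls it was -0.71 ± 0.53 (adjusted p of edgeR 0.377) in all mice and -1.13 within females (adjusted p of edgeR 0.0473).

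Ugt2b38 ranged further. It was at 0, 0.146, 0, 13.99 and 0.0505 CPM in AIH livers, at 33.7, 1.82, 13.2, 95.9 and 96.5 CPM in asymptomatic livers and at 5.49, 0.283, 0.218 and 0.559 CPM in control livers. The female libraries were all at or below 0.283 CPM, and AIH 4 again stood apart. The difference between AIH and asymptomatic livers (-4.10 ± 1.47, adjusted p of edgeR 0.0481) was lost in 10 of 14 fits without 1 library and with sex as a term (-2.38, adjusted p 0.299). Asymptomatic livers stood at 4.89 ± 1.70 against controls (adjusted p of edgeR 0.420).

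The remaining Ugt2 members were named after their values were seen. Ugt2a3 averaged 206 ± 77.6 CPM in AIH livers, 380.5 ± 44.9 CPM in asymptomatic livers and 321 ± 96.3 CPM in control livers, with -0.88 ± 0.25 between AIH and asymptomatic livers (adjusted p of edgeR 0.0162; 0.0644 with library totals as the only scaling). Ugt2b35 averaged 116 ± 93.2 CPM in AIH livers, 275 ± 41.4 CPM in asymptomatic livers and 227 ± 55.7 CPM in control livers. Its difference from asymptomatic livers was -1.25 ± 0.38 (adjusted p of edgeR 0.0238), lost without AIH 1, AIH 2 or AIH 5, and -1.86 without AIH 4. Ugt2b35 was also lower than in controls with sex as a term (-0.86, adjusted p 0.0485) and within females (-1.35, adjusted p 0.00919). Ugt2b37 reached 121 and 125 CPM in asymptomatic 4 and 5 and 0.279 to 16.5 CPM in the other 12 libraries. Its difference from asymptomatic livers (-3.56 ± 1.28, adjusted p of edgeR 0.0488) was lost in 9 of 14 fits without 1 library.

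The UGT3A enzymes use sugar donors other than UDP-glucuronic acid, as known for the human proteins. Ugt3a1 (chr15:9276888-9315032) was at 30.9, 13.3, 12.9, 47.4 and 35.6 CPM in AIH livers, at 59.1, 89.5, 87.8, 50.3 and 43.5 CPM in asymptomatic livers and at 73.0, 90.8, 97.0 and 92.6 CPM in control livers. All AIH values were below all control values, and AIH 4 exceeded asymptomatic 5. The difference from controls, -1.66 ± 0.35 (adjusted p of edgeR 0.00379), was kept in all 14 fits without 1 library, with sex as a term (-1.61) and within females (-2.02, adjusted p 0.00711). Against asymptomatic livers it was -1.24 ± 0.33 (adjusted p of edgeR 0.0125), and -0.96 with sex as a term (adjusted p 0.193).

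Ugt3a2 was at 313, 355, 449, 355 and 404 CPM in AIH livers, at 505, 462, 528, 451 and 419.9 CPM in asymptomatic livers and at 393, 618, 648 and 498 CPM in control livers. It was lower in AIH livers than in controls (-0.52 ± 0.17, adjusted p of edgeR 0.0404), and control 1 lay within the AIH range. The call was lost in 8 of 14 fits without 1 library (adjusted p up to 0.113), with library totals as the only scaling (-0.38, adjusted p 0.129) and with only the 2 groups compared (adjusted p 0.0886).

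The abundant glutathione transferases Gstm1, Gsta3 and Gstz1 were not called by edgeR over all libraries in any of the 3 comparisons. DESeq2 called Gstz1 between AIH and asymptomatic livers, where edgeR gave -0.50 ± 0.20 (adjusted p of edgeR 0.0722). Gstm1 was at 459, 847, 515, 1007 and 822 CPM in AIH livers, at 1041, 685, 983, 907 and 627 CPM in asymptomatic livers and at 1059.6, 521, 782 and 614 CPM in control livers. The groups overlapped, with -0.03 ± 0.27 between AIH and control livers (adjusted p of edgeR 0.956). Gsta3, which detoxifies aflatoxin epoxide in mice, averaged 1050.3 ± 392 CPM in AIH livers, 1593 ± 518 CPM in asymptomatic livers and 1386 ± 697 CPM in control livers (-0.40 ± 0.36 between AIH and control livers, adjusted p of edgeR 0.471). Gstz1, which isomerizes maleylacetoacetate in tyrosine breakdown, averaged 510.4 ± 76.4 CPM in AIH livers, 721 ± 193 CPM in asymptomatic livers and 705 ± 162 CPM in control livers (-0.47 ± 0.21 between AIH and control livers, adjusted p of edgeR 0.132).

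Gsto1, an omega class enzyme that reduces dehydroascorbate, was at 65.9, 86.7, 79.2, 67.7 and 69.0 CPM in AIH livers. It was at 77.0, 93.7, 86.8, 70.4 and 68.8 CPM in asymptomatic livers and at 87.9, 123.2, 107 and 102 CPM in control livers. No AIH value reached the lowest control: the nearest were 86.7 CPM in AIH 2 and 87.9 CPM in control 1. The difference was -0.51 ± 0.14 (adjusted p of edgeR 0.0209), lost without AIH 1 (-0.46, adjusted p 0.0518), without control 2 (-0.45, adjusted p 0.0587), and with library totals as the only scaling (-0.36, adjusted p 0.114). Asymptomatic livers stood at -0.40 ± 0.14 against controls (adjusted p of edgeR 0.421).

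Gstm2, a mu class enzyme, was the Gst member called higher. It was at 60.02, 106, 54.1, 30.4 and 91.4 CPM in AIH livers, at 34.5, 32.5, 48.4, 33.5 and 27.2 CPM in asymptomatic livers and at 30.9, 23.9, 53.7 and 11.2 CPM in control livers. The female AIH livers exceeded every control, and AIH 4 did not. The difference from controls was 1.19 ± 0.40 (adjusted p of edgeR 0.0455) but was lost in 11 of 14 fits without 1 library (0.90 to 1.26, adjusted p up to 0.120), with sex as a term (0.85, adjusted p 0.1101) and within females (1.01, adjusted p 0.154). Gstm3 averaged 44.3 ± 19.4 CPM in AIH livers, 33.8 ± 13.4 CPM in asymptomatic livers and 28.7 ± 24.1 CPM in control livers, and was not called (0.63 ± 0.55, adjusted p of edgeR 0.454).

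In the pi class, Gstp1, the major enzyme, was at 33.9, 72.9, 45.2, 440.1 and 30.05 CPM in AIH livers, at 548, 218, 389.9, 525 and 425 CPM in asymptomatic livers and at 171, 35.04, 33.3 and 239.7 CPM in control livers. All 8 male libraries were at or above 171 CPM, and all 6 female libraries at or below 72.9 CPM. Gstp1 was not called in any comparison by edgeR (AIH against asymptomatic -1.76 ± 0.76, adjusted p of edgeR 0.0935). Gstp2 averaged 0.428 ± 0.293 CPM in AIH livers, 1.42 ± 0.698 CPM in asymptomatic livers and 0.613 ± 0.427 CPM in control livers. It was lower in AIH than in asymptomatic livers (-1.71 ± 0.59, adjusted p of edgeR 0.0424), a call lost in 8 of 14 fits without 1 library and with sex as a term (-0.62, adjusted p 0.654). Of the 50-base words of Gstp2, 72.6% occur in another gene, so its reads may be shared with Gstp1. Gstp3 averaged 13.2 ± 2.13 CPM in AIH livers, 12.3 ± 5.51 CPM in asymptomatic livers and 15.5 ± 10.3 CPM in control livers, with overlap.

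Gsta4, the alpha class enzyme for 4-hydroxynonenal, a product of lipid peroxidation, averaged 23.1 ± 14.996 CPM in AIH livers, 38.5 ± 9.80 CPM in asymptomatic livers and 48.2 ± 22.3 CPM in control livers (-1.06 ± 0.47 between AIH and control livers, adjusted p of edgeR 0.123). Gsta1 was at most 0.760 CPM in any library and was not tested. Gstt3, a theta class enzyme, averaged 35.6 ± 15.2 CPM in AIH livers, 36.5 ± 18.5 CPM in asymptomatic livers and 71.0 ± 45.3 CPM in control livers. It was not called against controls in AIH livers (-0.998 ± 0.42, adjusted p of edgeR 0.103) or in asymptomatic livers (-0.96 ± 0.42, adjusted p of edgeR 0.449). The AIH value was -1.19 with sex as a term (adjusted p of edgeR 0.0491). The tested Gstt, Gsta, Gstk, Gsto and Gstz members all had values below 0 in AIH against control livers. In the edgeR fit of group means over all libraries, only Gsto1 of these was called. Gstm1, Gstm4, Gstp2 and Gstp3 were below 0 too, and Gstm2, Gstm3, Gstm5, Gstm6, Gstm7 and Gstp1 were above 0. The share of all tested genes below 0 is not given.

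Among sulfotransferases, Sult1a1, which sulfates phenols, was at 376, 489, 642, 199 and 371 CPM in AIH livers, at 196, 347, 284, 254 and 253 CPM in asymptomatic livers and at 264, 407, 464 and 263 CPM in control livers. The groups overlapped, with AIH 4 lowest of its group, and neither AIH comparison was called (0.25 ± 0.29, adjusted p of edgeR 0.592, against controls, and 0.64 ± 0.27, adjusted p of edgeR 0.0934, against asymptomatic livers). Sult1b1, which acts on thyroid hormones, averaged 23.4 ± 4.83 CPM in AIH livers, 35.5 ± 12.5 CPM in asymptomatic livers and 34.8 ± 19.3 CPM in control livers and was not called. Sult1e1, the estrogen sulfotransferase, was at 0.0560 to 14.4 CPM in AIH livers, at 0.130 to 6.25 CPM in asymptomatic livers and at 0.0559 to 18.6 CPM in control livers. Sult1d1 averaged 202 ± 104 CPM in AIH livers, 209.8 ± 46.2 CPM in asymptomatic livers and 228 ± 85.4 CPM in control livers, and was not called over all libraries. AIH 4 alone against the asymptomatic males gave -1.76 (adjusted p of edgeR 0.0423), again 1 mouse with its spread taken from the other groups. Sult5a1 averaged 10.1 ± 7.88 CPM in AIH livers, 16.9 ± 8.55 CPM in asymptomatic livers and 11.2 ± 13.9 CPM in control livers, and was called lower than in asymptomatic livers with sex as a term (-2.96, adjusted p of edgeR 0.0423) but not without it (-0.73 ± 0.76, adjusted p of edgeR 0.496).

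Sult2a8, which sulfates bile acids in mice, was at 165, 111, 78.4, 721 and 295 CPM in AIH livers. It was at 1151, 763, 1471, 1019 and 1048 CPM in asymptomatic livers and at 1088, 291, 593 and 630.3 CPM in control livers. Every AIH value was below every asymptomatic value, with male AIH 4 nearest at 721 against 763 CPM. The difference was -1.99 ± 0.52 (adjusted p of edgeR 0.0109), -2.74 without AIH 4, and -1.07 with sex as a term (adjusted p 0.190). Against controls it was -1.25 ± 0.54 and was not called (adjusted p of edgeR 0.114).

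A set of steroid and amine sulfotransferases was present in female libraries and nearly absent from male ones. Sult2a1, which sulfates dehydroepiandrosterone and bile acids, was at 262, 284, 349, 0.168 and 190.3 CPM in AIH livers, at 0.260, 1.06, 0.251, 0.452 and 0.133 CPM in asymptomatic livers and at 0.234, 655, 677 and 0.335 CPM in control livers. All 6 female libraries were at or above 190.3 CPM, and all 8 male libraries at or below 1.06 CPM. Sult2a2 was at 122, 184, 74.1, 0.0560 and 62.3 CPM in AIH livers, at 0.0627 to 0.294 CPM in asymptomatic livers and at 0.175, 206, 332 and 0.223 CPM in control livers. Sult3a1, which sulfates amines, was at 171, 106, 82.2, 0.112 and 69.5 CPM in AIH livers, at 0 to 0.882 CPM in asymptomatic livers and at 0.0585, 244, 53.9 and 0.112 CPM in control livers.

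AIH livers were higher than asymptomatic livers in Sult2a1 (8.93 ± 2.102, adjusted p of edgeR 0.00563), Sult2a2 (9.37 ± 2.15, adjusted p of edgeR 0.00486) and Sult3a1 (8.25 ± 2.01, adjusted p of edgeR 0.00696), and the groups overlapped because of AIH 4. In the model with sex these differences were -1.73, -0.74 and -1.77, none of them called. Within males they were -1.35, -1.08 and -1.25, but rested on 3, 1 and 2 counts in AIH 4. Sult3a2, a close relative of Sult3a1, had 648 counts over the AIH livers and 1 over the asymptomatic livers, a ratio of 531 (95% interval for counting error 94.9 to 20996; 419 without AIH 1). Its fitted difference was -1.64 with sex as a term. Within males it was -1.47, which compares 0 counts in AIH 4 with 1 count over the asymptomatic livers and gives no direction.

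Sult2a3, Sult2a4, Sult2a5 and Sult2a6, the members shown with promoter windows, had no count in any asymptomatic library and were named after their values were seen. Against the floor of 3 counts over the group, AIH livers were at least 125-fold higher in Sult2a3 (96.9-fold without AIH 2), 162-fold in Sult2a4 (97.0-fold without AIH 3), 386-fold in Sult2a5 (194-fold without AIH 5) and 213-fold in Sult2a6 (131-fold without AIH 5). Sult2a4 and Sult2a5 were called (adjusted p of edgeR 0.0162 and 0.0272), Sult2a3 was not (adjusted p of edgeR 0.0736) and Sult2a6 was not tested. Sult2a6 had 381 counts in AIH 3 and 399 in AIH 5, against 0 or 1 in the other AIH livers and at most 3 in a control liver, so its value rests on 2 libraries. In AIH 4, the male library, Sult2a4, Sult2a5 and Sult2a6 were at 0 and Sult2a3 at 0.0560 CPM. Within the female livers, Sult2a3 was at 7.59, 8.70, 1.34 and 4.90 CPM in AIH livers and at 49.1 and 283 CPM in the 2 control females.

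**Figure D4:**
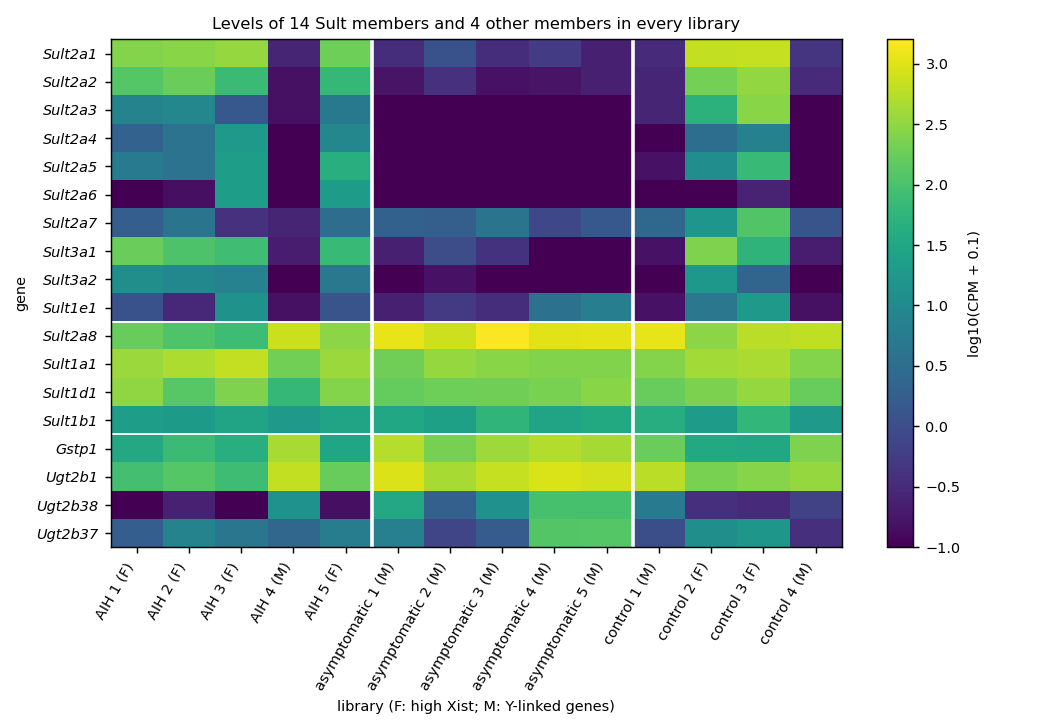
Level of 14 Sult members and 4 other members (rows) in every library (columns, by group), as log10(CPM + 0.1). Sult2a1 to Sult2a6, Sult3a1 and Sult3a2 are low in the male libraries, including AIH 4, and Gstp1 and Ugt2b38 are low in the female libraries.

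With sex as a term, AIH against control livers gave 1 member higher and 13 lower of 52 (17% of all genes called, 12.9% higher and 4.1% lower), and 9 of the 11 calls made without it were kept. Within females, 4 AIH against 2 control mice, 1 was higher and 13 lower (11.9% called, 9.42% higher and 2.51% lower), and 9 were kept. In a fit of only these 6 libraries, added after the data were seen, 0 were higher and 7 lower of 51 (5.59% called, 4.87% higher and 0.727% lower). That fit kept 5 of the 11 calls, without Gsto1, Gstm2, Ugt1a1, Ugt1a7c, Ugt2b34 and Ugt3a2. Within males, where AIH 4 faced 2 controls, 0 were called (3.05% of all genes called, 3.02% higher and 0.0342% lower).

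The calls gained with sex as a term were Gstt3, Ugt2b35, Sult2a1, Sult2a2 and Sult2a3. Sult2a1 was lower in AIH livers by -1.24 ± 0.35 with sex as a term (adjusted p of edgeR 0.0253) and -1.30 ± 0.38 within females (adjusted p of edgeR 0.0430). Sult2a2 was lower by -1.31 (adjusted p of edgeR 0.0209) with sex as a term, and Sult2a3 by -4.79 (adjusted p of edgeR 0.00183). Sult2a7 was at 1.73, 4.08, 0.291, 0.168 and 3.03 CPM in AIH livers, at 0.711 to 4.08 CPM in asymptomatic livers and at 2.51, 15.8, 115 and 1.117 CPM in control livers, and the 2 female controls were highest. It was lower than in controls by -4.15 ± 1.13 (adjusted p of edgeR 0.0170), and by -1.79 without control 3 (adjusted p 0.184). With sex as a term it was -4.66 (adjusted p of edgeR 0.00075). No member had a group difference that differed between the sexes after adjustment: the interaction was called in 0 of 14638 genes (smallest adjusted p of edgeR among the 52 members 0.9999), with an unadjusted p under 0.05 in 4 members, and rested on 1 male AIH mouse.

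**Figure D5:**
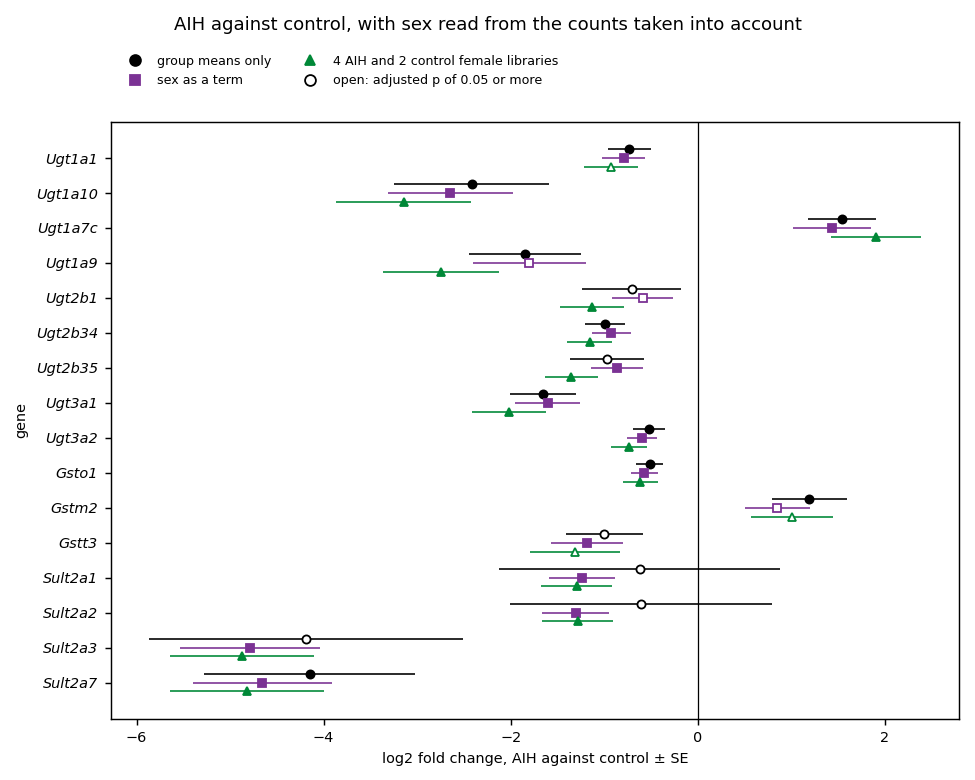
Log2 fold changes of 16 members in AIH against control livers, in all libraries, with sex as a term and within females; open points have an adjusted p of 0.05 or above. Ugt3a1 and Ugt2b34 keep their side of 0 and their call in all 3, and Sult2a1 and Sult2a2 are called only in the sex-aware fits.

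Genes that supply or remove what the transferases use were described from lists. Beside their counts stand the shares over all tested genes in the fit of all libraries. They were 15.6% higher and 6.08% lower in AIH against control livers. In AIH against asymptomatic livers they were 19.1% and 10.7%. No such shares are given for counts in fits without 1 library. Of 7 tested genes of UDP-glucuronic acid supply, 1 was higher and 1 lower in AIH than in control livers (median -0.38). Slc35d1, which carries UDP-glucuronic acid into the endoplasmic reticulum, averaged 99.3 ± 16.4 CPM in AIH livers, 178 ± 27.4 CPM in asymptomatic livers and 157 ± 28.5 CPM in control livers (-0.67 ± 0.17 against controls, adjusted p of edgeR 0.0127). Gusb, a lysosomal enzyme that cleaves glucuronides, averaged 52.8 ± 7.24 CPM in AIH livers, 39.7 ± 0.836 CPM in asymptomatic livers and 37.3 ± 4.40 CPM in control livers (0.50 ± 0.13 against controls, adjusted p of edgeR 0.0106). Against asymptomatic livers 1 was higher and 2 were lower, with Slc35d2, another nucleotide sugar carrier, at -0.88 ± 0.16 (adjusted p of edgeR 0.00104). That count was 6 without asymptomatic 2 and 5 without control 1, control 2 or control 4.

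Of 8 tested genes of PAPS supply and sulfate handling, 3 were lower in AIH than in control livers and 0 higher (median -0.48), and 1 was called without AIH 2 or without control 2. They were Suox, the sulfite oxidase (-0.90 ± 0.25, adjusted p of edgeR 0.0190), Bpnt1 (-0.57 ± 0.16, adjusted p of edgeR 0.0209) and Impad1 (-0.62 ± 0.19, adjusted p of edgeR 0.0307), both phosphatases of the spent donor PAP. With library totals as the only scaling none of the 3 was called. Against asymptomatic livers Bpnt1 alone was called (-0.70, adjusted p of edgeR 0.0035).

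Of 20 tested genes of glutathione synthesis and turnover, 1 was higher and 3 were lower in AIH than in control livers (median -0.45), with 2 called without AIH 3 or without control 4 and 1 without control 2. Chac1, which breaks down glutathione, averaged 5.47 ± 1.54 CPM in AIH livers, 2.01 ± 0.860 CPM in asymptomatic livers and 1.37 ± 0.746 CPM in control livers (1.99 ± 0.39 against controls, adjusted p of edgeR 0.00232). Ahcy, the S-adenosylhomocysteine hydrolase, was lower (-0.74 ± 0.22, adjusted p of edgeR 0.0240), as was the peptidase Anpep (-0.67 ± 0.19, adjusted p of edgeR 0.0203). The Ahcy call was lost without AIH 2, AIH 3, control 2 or control 4, and the Anpep call without AIH 1 or control 2. Against asymptomatic livers 2 were higher and 3 lower, a count of 5 that ranged from 2 to 8 over the fits without 1 library, with 8 without AIH 4 and 2 without AIH 1, AIH 3 or asymptomatic 1.

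Of the 6 membrane glutathione transferases and relatives (MAPEG), 2 were higher in AIH than in control livers. Alox5ap, the 5-lipoxygenase activating protein of leukocytes, averaged 22.3 ± 20.8 CPM in AIH livers, 3.17 ± 0.382 CPM in asymptomatic livers and 2.87 ± 1.03 CPM in control livers (2.95 ± 0.59 against controls, adjusted p of edgeR 0.00256). Mgst2 was also higher, at 0.683 ± 0.376 CPM in AIH livers, 0.138 ± 0.0777 CPM in asymptomatic livers and 0.0552 ± 0.0637 CPM in control livers. It was left out by the count filter without AIH 1, AIH 2, AIH 3 or AIH 4, so 1 of the list was then called. Against asymptomatic livers 2 were higher and 1 lower. Mgst1, the most abundant of the list, averaged 2269 ± 420.3 CPM in AIH livers, 3566 ± 630.0 CPM in asymptomatic livers and 3092 ± 686 CPM in control livers. It was lower in AIH than in asymptomatic livers (-0.65 ± 0.19, adjusted p of edgeR 0.0169), a call lost with sex as a term, within males, with the share of reads not aligned and with library totals as the only scaling, and was not called against controls (-0.45 ± 0.20, adjusted p of edgeR 0.122).

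All 6 conjugate efflux pumps were tested. Between AIH and control livers 2 were higher, Abcc1 (1.30 ± 0.25, adjusted p of edgeR 0.00198) and Abcc5 (1.18 ± 0.29, adjusted p of edgeR 0.00942), and 2 were lower, the sinusoidal pump Abcc3 (-1.03 ± 0.25, adjusted p of edgeR 0.0090) and the canalicular pump Abcc2 (-1.05). Abcc1 averaged 8.81 ± 1.40 CPM in AIH livers, 2.47 ± 0.822 CPM in asymptomatic livers and 3.58 ± 0.741 CPM in control livers. Abcc3 averaged 191 ± 58.3 CPM in AIH livers, 262 ± 85.9 CPM in asymptomatic livers and 390 ± 41.2 CPM in control livers. Against asymptomatic livers 3 were higher and 1 was lower, with Abcc1 at 1.83 ± 0.24 (adjusted p of edgeR 6.94e-05), a call kept with sex as a term and within males.

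Of 17 tested xenobiotic and liver regulators, 4 were lower and 0 higher in AIH than in control livers (median -0.40), with 2 called without AIH 2. Ppara, the fatty acid receptor, averaged 71.5 ± 31.0 CPM in AIH livers, 152 ± 34.7 CPM in asymptomatic livers and 203 ± 34.9 CPM in control livers (-1.51 ± 0.33 against controls, adjusted p of edgeR 0.00501). Rxra, the partner of many nuclear receptors (-0.53 ± 0.15, adjusted p of edgeR 0.0232), and Nr1h4, the bile acid receptor (-0.57 ± 0.17, adjusted p of edgeR 0.0240), were lower as well. Both of these were lost with library totals as the only scaling. The fourth was Nr1i3 (-1.32), the receptor CAR. Against asymptomatic livers 8 of 17 were lower (median -0.63), with Hnf4a, a factor of hepatocyte identity, at 532 ± 81.9 CPM in AIH livers, 1072 ± 322 CPM in asymptomatic livers and 702 ± 162 CPM in control livers (-1.01 ± 0.23 against asymptomatic livers, adjusted p of edgeR 0.00426). In the model with sex it was -1.08 (adjusted p of edgeR 0.0522), and 1 of the 17 was called.

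Of 12 tested NRF2 targets outside the members, 2 were higher and 1 lower in AIH than in control livers (median -0.31). Hmox1, heme oxygenase 1, which macrophages make too, averaged 149 ± 90.6 CPM in AIH livers, 32.4 ± 10.3 CPM in asymptomatic livers and 32.7 ± 11.2 CPM in control livers (2.19 ± 0.47 against controls, adjusted p of edgeR 0.00439). Cbr3, a carbonyl reductase, was higher (1.48 ± 0.42, adjusted p of edgeR 0.0207; lost without AIH 2, control 1 or control 3), and Ephx1, the microsomal epoxide hydrolase, lower (-0.94 ± 0.28, adjusted p of edgeR 0.0254; lost without AIH 1, AIH 2, AIH 3 or control 4). Against asymptomatic livers 2 were higher and 3 lower, with 3 called in all without AIH 1, AIH 3, AIH 5 or asymptomatic 4.

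Sex-dependent liver genes outside the members were described in the same way. Summed CPM of the female-biased list ran from 99.3 to 2388 in AIH livers and from 109.9 to 249.8 in asymptomatic livers, and overlapped because of AIH 4. Of 13 female-biased genes, 10 were higher in AIH livers (median 6.57), among them Cyp3a44 (8.81 ± 1.94, adjusted p of edgeR 0.00379), and 0 were called with sex as a term or within males. Of 11 male-biased genes, 1 was lower, Cyp7b1 (-3.04 ± 0.94, adjusted p of edgeR 0.0251), and without AIH 4 all 11 were called. Of 10 genes listed around the growth hormone signal that sets this pattern, 3 were higher. They were Cux2, a female-specific repressor (5.24 ± 1.37, adjusted p of edgeR 0.0105), Jak2 (0.61 ± 0.16, adjusted p of edgeR 0.0120) and Cish (1.10 ± 0.38, adjusted p of edgeR 0.0415). Cux2 and Prlr stand in the female-biased list too, so Cux2 is counted in both lists. Cux2 was at -0.96 with sex as a term, and the count of called growth hormone genes was 6 without asymptomatic 2. Between AIH and control livers, 0 of these 3 lists' genes were called, with 3 male-biased, 7 female-biased and 1 growth hormone gene called with sex as a term, and 8 male-biased genes without AIH 4. No gene of any of the 10 pathway lists was called between asymptomatic and control livers.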

How the data were processed

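Left liver lobe RNA from 14 mice was sequenced, 5 AIH, 5 asymptomatic and 4 control, with 1 library per mouse, so p-values measure the spread between these mice. The values deposited by the authors are raw counts, whole numbers per Ensembl gene, not normalized. The submitters' processing notes name HISAT2 2.1.0, HTSeq 0.9.0, R 4.0, edgeR, cutadapt 1.12 and FastQC 0.11.5, and the builds GRCh38 and GRCm38. Positions are on GRCm38, since all gene IDs are those of mouse. The strand setting is not given in the sources used here, nor is the annotation release, so reads of overlapping or antisense genes cannot be told apart. Of the 51912 gene rows, 51719 matched GENCODE, and 7 pseudogenes with member-like symbols were left out. The 5 HTSeq summary rows stayed out of library sizes and tests. They held reads not aligned (3.23% to 9.27% of a file), not unique (28.8% to 37.0%), ambiguous (1.38% to 3.05%) and without a feature (2.29% to 3.29%). Near-identical members can lose or share reads.

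Counts were filtered with filterByExpr (14638 genes left), scaled by TMM and tested with edgeR 4.0.16 (R 4.3.3), quasi-likelihood, two-sided, with group means in 1 model over the 14 libraries. A threshold of 0.05 was set on p-values after Benjamini-Hochberg adjustment over all tested genes. Standard errors derive from the F statistic. Intervals (95%) and the floor of 3 counts over a group cover counting error only. Sex, read from Xist and 4 Y-linked genes, served as a term and for contrasts within a sex. Other settings were RLE factors, library totals alone, TMM without the 20 most abundant genes, DESeq2 1.42.0, other filters on counts, limma-voom (limma 3.58.1) with quality weights, only the 2 groups compared, each library left out in turn, and a term for the share of reads not aligned. A fit of the 6 female libraries was added after the data were seen. On simulated counts for AIH against control (13824 genes), 26 of 93 genes changed 2-fold, 75 of 94 changed 4-fold and 5 of 13637 unchanged genes were called. These counts were drawn from the control means with no difference in sex or cell content, so the rates need not hold for the real libraries. Figures used matplotlib 3.10.9.

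The members, the 10 pathway lists, the 9 marker lists and the named genes were chosen with earlier results of these data known. The text names the 4 most abundant members per class, up to 4 called members per class, comparison and direction (or the 2 with the smallest p), and a set of 18 members. From each list it names up to 3 called genes, or 1. Sult2a3 to Sult2a6, Ugt1a8, Ugt1a10, Ugt2a3, Ugt2b35, Ugt2b37, Ugt1a6a, Nr1i3, Abcc2, Dbp and Arntl were named after their values were seen. Of 194 list symbols 192 matched. The lists are described by their counts and medians, and no set test was run. In promoters, 12 motifs chosen after seeing the data were searched on both strands.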

Additional observations from a re-analysis of the deposited data

Results flagged for a closer look

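In 12 of 111 groups of 4 or 5 libraries, 1 library lay far from the others of its group. Chance gives about 1 in 20 only for independent values with a normal spread. These CPM values were not independent, since members shared the split by sex and many were named for their calls. Whether 12 of 111 is more than chance gives can therefore not be told. AIH 4, the male AIH mouse, had 440.1 CPM of Gstp1 against 30.05 to 72.9 CPM in the other AIH livers, 644 CPM of Ugt2b1 against 79.7 to 167 CPM, and 13.99 CPM of Ugt2b38 against 0 to 0.146 CPM. AIH 5 had 62.3 CPM of Gstt3 against 24.5 to 31.1 CPM in the others, and AIH 3 had 14.4 CPM of Sult1e1 against 0.0560 to 1.11 CPM.

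Among asymptomatic livers, asymptomatic 3 had 0.565 CPM of Gsta1 against 0 to 0.133 CPM and 1057 CPM of Gstz1 against 600.1 to 713 CPM. Asymptomatic 2 had 0.0588 CPM of Sult3a2, which was 1 count, with 0 in the others. Asymptomatic 1 had 838 CPM of Ugt2b34 against 653 to 682 CPM.

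Among control livers, control 3 had 115 CPM of Sult2a7 against 1.117 to 15.8 CPM, control 2 had 17.2 CPM of Sult3a2 against 0 to 2.23 CPM, and control 1 had 5.49 CPM of Ugt2b38 against 0.218 to 0.559 CPM.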

How the results depend on the processing

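Sex and the share of reads not aligned differ between the groups, 1 AIH mouse is male, and few-count members rest on 1 or 2 libraries. The clock genes Dbp and Arntl split the controls. Dbp was at 121 and 153 CPM in controls 1 and 3 and at 0.904 and 3.63 CPM in controls 2 and 4. Arntl was at 0.585 and 1.31 CPM against 21.8 and 26.6 CPM. Gst sums were 4994 and 5002 CPM in controls 1 and 3 and 2596 and 2915 CPM in controls 2 and 4. AIH 4 had 4.64 CPM of Dbp and 17.0 CPM of Arntl. The part of this split in the results was not tested. Asymptomatic females were not among these samples, so AIH and asymptomatic females could not be compared. No paired analysis was possible because the replicate numbers follow accession order only. Of the 32 member calls in both AIH comparisons, RLE factors and TMM without the 20 most abundant genes kept 32, a filter of 1 CPM in 4 libraries and no count filter 30 each, DESeq2 29, library totals 21, only the 2 groups 20, limma-voom 19, sex as a term 11, the share not aligned 8 and within males 0. Class totals kept their direction under both other scalings.

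For AIH against control, 2 members were called higher, and the count was 1 with only the 2 groups, with sex as a term, with the share not aligned as a term and within females, and 0 within males and in the 6 females alone. There were 9 called lower, and 3 with library totals, 5 with only the 2 groups and 0 within males. Without 1 library each, 1 to 3 were higher and 3 to 15 lower. For asymptomatic against control, limma-voom called 2 higher and 2 lower and DESeq2 7 lower, and fits without 1 library called 0 to 0. For AIH against asymptomatic, 7 were called higher, and 1 with limma-voom, 4 with only the 2 groups and 0 with sex, with the share not aligned and within males. There were 14 called lower, and 9 with library totals, 4 with sex (2 of them among the 14), 0 with the share not aligned and 2 within males (neither among the 14). Without 1 library each, 5 to 9 were higher and 9 to 14 lower. Shares of all tested genes called are not given for fits without 1 library, with only the 2 groups or with the share not aligned. Changes of the counts there can therefore not be set against changes over all genes. The cause was not tested.

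Signs turned as follows. In AIH against control, Ugt1a9 was at 0.0883 within males. In asymptomatic against control, Sult2a1 was at 0.49 with sex as a term and 0.61 within males, and Ugt2b38 at -1.03 with the share not aligned. In AIH against asymptomatic, the share not aligned gave Gstp2 0.21 and Ugt2b38 0.18. There, with sex as a term and within males, Sult2a1 was at -1.73 and -1.35 and Sult2a2 at -0.74 and -1.08. Sult3a1 was at -1.77 and -1.25, and Sult3a2 at -1.64 and -1.47. In this order of genes, the values within males rest on 3, 1, 2 and 0 counts in AIH 4, so their signs are uncertain.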
